A study of Mus musculus with 16 samples.

Results

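Sp7 and Slc5a11 were among the few transcripts that were lower in the cerebellum of mice without Npc1, and both are known from oligodendrocytes, the cells that make myelin in the central nervous system. They were examined here with 8 other genes of oligodendrocyte maturation, namely Enpp6, Bcas1, Gpr17, Neu4, Opalin, Myrf, Ermn and Hapln2. These 10 genes are a small part of the 17983 genes tested. Sp7 and Slc5a11 were chosen by the log2 fold change and adjusted p of their own genotype difference on these arrays, so their values describe that choice and are not tested again, and the 8 others were chosen with earlier results of the same data known. The question was whether the drop of Sp7 and Slc5a11 goes with the genes of newly formed oligodendrocytes or with those of mature ones.

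The cerebella came from 8 mice aged 3 weeks, of which 4 were Npc1-/- and 4 were wild-type (Npc1+/+), all of the strain BALB/cNctr-Npc1m1N/J on a BALB/c background. The Npc1-/- mice were bred in house and carry the allele in every cell of the body. Whole cerebellum was frozen and its RNA hybridised to 1 Agilent one-colour array per replicate number. The labels do not say which mouse gave which array, so a p-value measures the spread between these arrays. A second set of 8 arrays, on the Illumina platform, pairs its probes with no gene names and gives no value for these genes.

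Oligodendrocytes arise from dividing precursors, which leave the cell cycle, pass through a short newly formed (premyelinating) stage and then wrap axons as mature cells. Enpp6, Bcas1, Gpr17 and Neu4 are known to peak around the newly formed stage, and Sp7 is a transcription factor present at that stage and best known for its role in bone. Opalin, Ermn and Hapln2 are known from mature, myelinating cells. Myrf is the transcription factor that switches on myelin genes, and Slc5a11 is a sodium-coupled transporter of inositol that is abundant in mature oligodendrocytes.

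The array held 16 probes for the 10 genes, and 13 of them, covering all 10 genes, stood well above background on 4 or more of the 8 arrays and were tested. Sp7, Slc5a11, Ermn, Neu4 and Hapln2 had 1 probe each, Bcas1, Enpp6, Gpr17 and Opalin had 2, and Myrf had 3. The file lists Ermn as A330104H05Rik, Opalin as Tmem10 and Myrf as Gm98. Every value of Sp7 and Slc5a11 rests on the single probe sequence shown here, and the Opalin probe is shown because Opalin stood closest to them. In the mm7 build the Slc5a11 probe lies at chr7:119375760-119375819 on the plus strand and the Sp7 probe at chr15:102343418-102343477 on the minus strand. The 60 bases of the Opalin probe map to chr19:40957801-40960379 on the minus strand, a stretch of 2579 bases, so they are not contiguous in the genome. Whether the probes lie in coding exons or UTRs was not determined here. The first 30 bases of the Sp7 probe are given.
Slc5a11: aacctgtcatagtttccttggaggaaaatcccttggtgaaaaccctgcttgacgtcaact
Sp7: tttctttttcagttgagttttgggttgttc
Opalin: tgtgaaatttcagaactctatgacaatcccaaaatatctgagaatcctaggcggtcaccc

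The arrays parted by genotype at the mutated gene, as Npc1 itself fell by 1.99 ± 0.10 log2 units (SE; adjusted p = 0.00045 in limma). Between 22182 and 28137 probes per array were well above background, with the fewest on wild-type replicate 2. Signals are given as log2 values relative to the 75th percentile of the same array, in the order of replicates 1 to 4, and fold changes are Npc1-/- minus wild type. Values of different probes are not comparable as levels. The arrays lay on 4 slides, of which slides 2, 3 and 4 held both genotypes. Slide 2 held Npc1-/- replicate 2 and wild-type replicate 3, and slide 4 held Npc1-/- replicate 3 and wild-type replicate 1. Slide 3 held Npc1-/- replicates 1 and 4 and wild-type replicate 2. Every difference within a slide thus rests on a single wild-type array, and within slides 2 and 4 also on a single Npc1-/- array.

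The differences of the 10 genes were graded from -1.28 to 0.07 log2 units, and genes of both stages stood at either end. Sp7 and Slc5a11 were lower by more than 2.3-fold, Opalin by 2.19-fold and Enpp6 by 1.65-fold, while Neu4, Hapln2 and the tested probe of Myrf differed by 0.07 log2 units or less. Of the 10 genes, 9 had a negative log2 fold change, as did 53.4% of all genes tested. In 6 of the 10, all 4 Npc1-/- arrays lay below all 4 wild-type arrays, against 1.95% of all genes. The 6 were Sp7, Slc5a11, Opalin, Enpp6, Ermn and Gpr17, and the same number was found without wild-type replicate 2, when the share of all genes was 6.04%. Sp7 and Slc5a11 enter these counts through their choice by a large drop. Of the 8 others, 4 did not overlap, both with all arrays and without wild-type replicate 2. The threshold (limma, Benjamini-Hochberg adjusted p under 0.05) was passed by 2 of the 10 genes, which are the genes that chose the set, against 0.0334% of all genes that passed it as lower. None of the 8 other genes passed it with limma, and 4 of them (Opalin, Enpp6, Ermn and Gpr17) had an unadjusted p under 0.05, as did 2.31% of all genes in the lower direction. The counts of genes lower at this unadjusted p in the lists below stand against the same share. No share was computed for the higher direction. In whole tissue, fewer oligodendrocytes and less RNA per oligodendrocyte cannot be told apart.

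**Figure D1:**
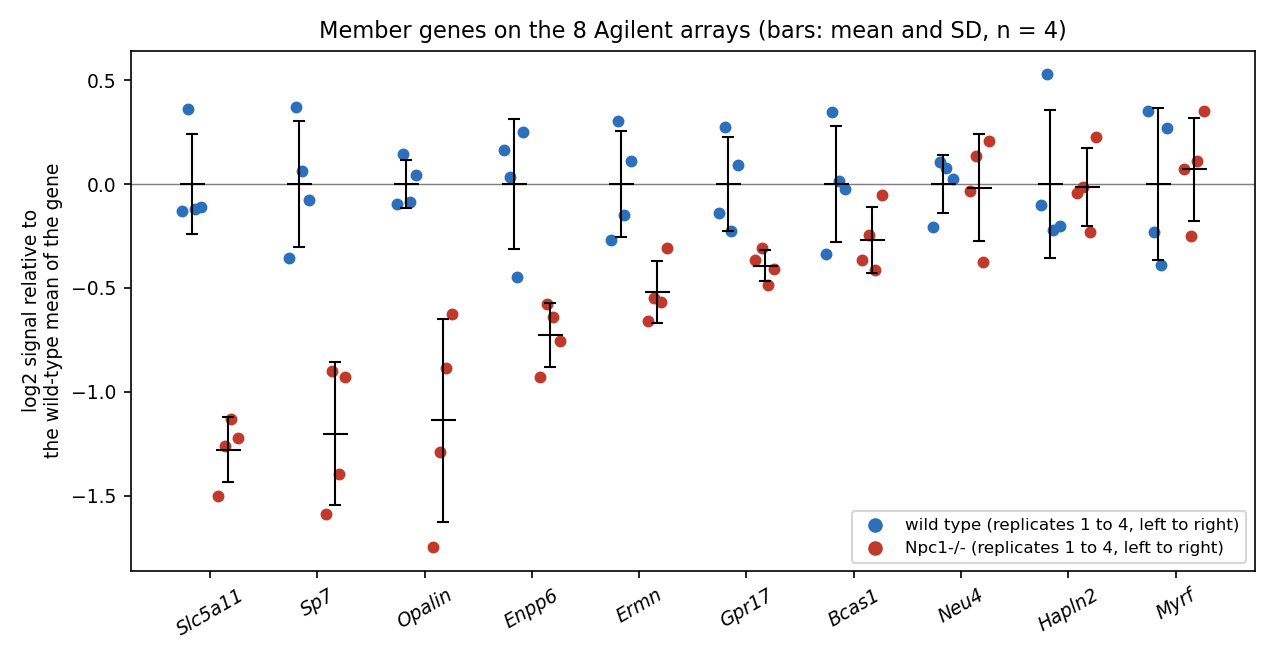
Log2 signal of each member on the 8 Agilent arrays minus the wild-type mean of the gene, with wild-type arrays in blue, Npc1-/- arrays in red, and the mean and SD of each group as bars (n = 4). The groups are apart for Slc5a11, Sp7, Opalin, Enpp6, Ermn and Gpr17, with the narrowest gap at Ermn (0.04), and they overlap for Bcas1, Neu4, Hapln2 and Myrf.

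Slc5a11 had the widest gap between the groups. Its signal was -2.53, -2.29, -2.16 and -2.25 on the Npc1-/- arrays and -1.16, -0.67, -1.15 and -1.14 on the wild-type arrays. All Npc1-/- arrays were low, and the highest of them lay 1.00 log2 units under the lowest wild-type array. Wild-type replicate 2 stood above the other wild-type arrays, which lay close together. The group means were -2.31 ± 0.16 and -1.03 ± 0.24 (SD, n = 4), a log2 fold change of -1.28 ± 0.14 (SE; 95% interval -1.60 to -0.95; limma adjusted p = 0.0064), or 2.42-fold lower. The difference was -1.14, -1.72 and -1.0 within slides 2, 3 and 4. With the slide as a block it was -1.33, with a limma adjusted p of 0.105, and without wild-type replicate 2 it was -1.16.

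Sp7 spread more between the Npc1-/- arrays than Slc5a11 did. Its signal was -5.24, -4.55, -5.05 and -4.58 on the Npc1-/- arrays and -4.01, -3.28, -3.59 and -3.73 on the wild-type arrays. The groups were apart by 0.55 log2 units, with the lowest value on Npc1-/- replicate 1 and the highest on wild-type replicate 2. The means were -4.86 ± 0.34 and -3.65 ± 0.30 (SD, n = 4), a log2 fold change of -1.21 ± 0.21 (SE; 95% interval -1.68 to -0.73; limma adjusted p = 0.0447). That is 2.31-fold lower, with an interval from 1.66-fold to 3.20-fold. Among the genes that passed as lower, Sp7 stood nearest to the threshold, and the first gene outside it was an unnamed transcript with a log2 fold change of -0.74 and an adjusted p of 0.0646. The Sp7 probe was dim, with a mean signal of -4.25, though well above background on all 8 arrays. Its difference was -1.34 with quantile normalization alone, and -0.43 with normexp (offset 50) and quantile normalization (limma adjusted p = 0.132). Under that normexp setting the dimmer Opalin probe gave -0.58, against -1.27 in the main fit, and Slc5a11 gave -1.12. The part of the offset in these values was not tested. The Sp7 difference passed the threshold in 5 of 18 alternative fits. Leaving out 1 array gave -1.32 to -1.08, with a limma adjusted p from 0.0438 to 0.125, and the threshold was passed only without wild-type replicate 1. With the slide as a block it was -1.26 (limma adjusted p = 0.197). Within slides 2, 3 and 4 the difference was -0.97, -1.63 and -1.05.

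Because Sp7 is the defining transcription factor of bone-forming osteoblasts, osteoblast genes were read on the same arrays. Of the 14 listed genes 9 were tested, and 0 passed the threshold in either direction (limma), with 4 negative values and a median of 0.17. At an unadjusted p under 0.05, 2 were lower, against 2.31% of all genes, and 3 were higher. Bglap, which encodes osteocalcin, had -0.94 ± 0.41 (SE), and the osteocyte genes Sost and Phex had -0.55 ± 0.24 and -0.40 ± 0.19. Col1a2 and Col1a1, collagens of bone and meninges, had 0.57 ± 0.20 and 0.29 ± 0.10, and Spp1 had 0.51 ± 0.17. All of these were named after their values were seen. Runx2, Bglap2, Ibsp and Dlx5, which include defining genes of that cell type, were among those not tested. The summed linear level of the 9 genes was 44.7 to 50.1 on the Npc1-/- arrays and 36.1 to 43.7 on the wild-type arrays, of which Sparc alone made 71.4% to 78.6%. The part of osteoblast genes in the value of Sp7 was not tested. In the family of Sp and Klf zinc-finger factors 13 of 15 listed genes were tested, and Sp7 alone passed; 9 were negative and the median was -0.13. Among 24 tested transcription factors of the oligodendrocyte lineage, again Sp7 alone passed, 15 were negative, and the median was -0.07. At an unadjusted p under 0.05, 7 of the 24 were lower, against 2.31% of all genes, and 0 were higher. Apart from Sp7 the lower genes were Nkx6-2 (-0.66), Sox10 (-0.60), Nkx2-2 (-0.59), Sox8 (-0.54), Olig1 (-0.38) and Zeb2 (-0.33), named after their values were seen.

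Among the other genes of the newly formed stage, Enpp6 came next. It encodes a choline-specific phosphodiesterase at the cell surface. Its brighter probe gave -3.54, -3.19, -3.25 and -3.37 on the Npc1-/- arrays and -2.45, -2.58, -3.06 and -2.36 on the wild-type arrays. Wild-type replicate 3 lay near the Npc1-/- arrays without reaching them. The means were -3.34 ± 0.16 and -2.61 ± 0.31 (SD, n = 4), a log2 fold change of -0.73 ± 0.16 (SE; 95% interval -1.10 to -0.35; limma adjusted p = 0.135). The second probe gave -0.69 ± 0.15 (SE), again without overlap. Without wild-type replicate 3 the difference was -0.88 with a limma adjusted p of 0.0242. Within slide 2, which holds that array, it was -0.13, against -0.88 and -0.80 within slides 3 and 4. The Enpp6 difference passed the threshold in 3 of 18 alternative fits. With the slide as a block it was -0.63 (limma adjusted p = 0.434). In a list of 15 tested genes of the Enpp family and choline metabolism 0 passed (limma; 2 were lower and 0 higher at an unadjusted p under 0.05), 6 were negative and the median was 0.01. Enpp2, the enzyme that makes lysophosphatidic acid, had -0.24 ± 0.42 (SE) and the choline kinase Chkb 0.07 ± 0.08.

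Gpr17 is a receptor of the membrane that marks cells on their way from precursor to myelinating cell. It gave 3.74, 3.80, 3.62 and 3.70 on the Npc1-/- arrays and 3.97, 4.38, 3.88 and 4.20 on the wild-type arrays. The groups did not overlap, and the Npc1-/- arrays lay closer together than the wild-type arrays. The log2 fold change was -0.40 ± 0.12 (SE; 95% interval -0.68 to -0.11; limma adjusted p = 0.399), and it was -0.08, -0.66 and -0.36 within slides 2, 3 and 4. A second Gpr17 probe was not well above background on any array. On a list of Gpr17 and its signalling partners, 10 genes were tested, 0 passed (limma; 3 were lower and 1 higher at an unadjusted p under 0.05), 4 were negative, and the median was 0.09, with the inhibitory G protein subunit Gnai2 at 0.04 ± 0.10 (SE). Without Gpr17, 2 of the 9 genes were lower at that unadjusted p, against 2.31% of all genes, 3 were negative, and the median was 0.14.

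Bcas1 and Neu4 of the same stage overlapped between the genotypes. Bcas1 marks cells that are starting to myelinate, and gave 3.55, 3.67, 3.50 and 3.86 on the Npc1-/- arrays and 3.58, 4.26, 3.93 and 3.89 on the wild-type arrays. The difference was -0.27 ± 0.15 (SE; 95% interval -0.62 to 0.08; limma adjusted p = 0.752), and the second probe gave -0.26 ± 0.20. Without wild-type replicate 2, the highest array, the difference was -0.15. Neu4, a sialidase, gave -3.05, -2.88, -3.39 and -2.81 against -3.22, -2.91, -2.94 and -2.99. Its difference was -0.02 ± 0.14 (SE; 95% interval -0.35 to 0.31; limma adjusted p = 0.972), an interval that leaves out drops as large as those of Sp7 and Slc5a11. All 4 sialidase genes were tested and 0 passed (limma; 0 were lower and 0 higher at an unadjusted p under 0.05), with the lysosomal enzyme Neu1 at 0.08 ± 0.10 (SE) and Neu2 at -0.24 ± 0.16.

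Of the genes of mature cells, Opalin was lower by nearly as much as Sp7. Opalin is a transmembrane glycoprotein of the myelin sheath and its paranodal loops. Its signal was -2.90, -2.44, -2.04 and -1.78 on the Npc1-/- arrays and -1.25, -1.01, -1.24 and -1.11 on the wild-type arrays. The wild-type arrays lay close together and the Npc1-/- arrays were spread out below them. The means were -2.29 ± 0.49 and -1.16 ± 0.12 (SD, n = 4), a log2 fold change of -1.13 ± 0.22 (SE; 95% interval -1.65 to -0.62; limma adjusted p = 0.0772). A drop of at least 1 log2 unit was found in 0.139% of all genes. The second probe gave -6.05, -4.76, -4.18 and -4.14 against -3.67, -2.95, -3.95 and -3.47, with no overlap and a log2 fold change of -1.27 ± 0.42 (SE). The difference of the brighter probe was -1.19, -1.33 and -0.78 within slides 2, 3 and 4. It passed the threshold in 2 of 18 alternative fits, those with normexp (-0.97, limma adjusted p = 0.0223) and with array weights (-1.33, 0.0126). With the slide as a block it was -1.12 (limma adjusted p = 0.4145).

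Ermn, a cytoskeletal protein of late oligodendrocyte processes, was lower by less. Its signal was -2.18, -2.07, -2.09 and -1.83 on the Npc1-/- arrays and -1.79, -1.22, -1.67 and -1.41 on the wild-type arrays, so the groups were apart by only 0.04. The log2 fold change was -0.52 ± 0.14 (SE, 95% interval -0.85 to -0.19, limma adjusted p = 0.282). It passed the threshold in 1 of 18 alternative fits, the one with array weights (-0.62, limma adjusted p = 0.0273). With the slide as a block it was -0.53 (limma adjusted p = 0.476).

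Hapln2 overlapped between the genotypes, and the probes of Myrf disagreed. Hapln2 links proteoglycans to hyaluronan around the nodes of Ranvier, and gave -0.81, -0.78, -1.0 and -0.54 on the Npc1-/- arrays against -0.87, -0.24, -0.99 and -0.97. Its difference was -0.02 ± 0.18 (SE; 95% interval -0.44 to 0.40; limma adjusted p = 0.98), and it turned to 0.16 without wild-type replicate 2 and to 0.09 with array weights. Of 19 tested genes of the node and its matrix 0 passed (limma; 1 was lower and 1 higher at an unadjusted p under 0.05), with the axonal potassium channel Kcna1 at 0.02 ± 0.12 (SE) and the scaffold Ank3 at 0.12 ± 0.13. Myrf was near background, as its tested probe was well above it on 2 arrays of each genotype. That probe gave -5.52, -5.84, -5.48 and -5.24 against -5.24, -5.82, -5.98 and -5.32, a difference of 0.07 ± 0.20 (SE; 95% interval -0.39 to 0.53; limma adjusted p = 0.916). The sign of the Myrf difference turned under array-median scaling (-0.04), normexp (-0.05) and array weights (-0.18), and 5 of its 18 alternative fits gave no value because the probe left the filter. Its other probes, well above background on 1 wild-type array or on none and so not tested, both gave a difference of the means of -0.52, with all Npc1-/- arrays below all wild-type arrays in 1 of them.

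Among the partners and regulators of Myrf, no gene passed the threshold. Of 7 tested genes, which include Myrf itself, 0 passed (limma), 5 were negative, and the median was -0.22. At an unadjusted p under 0.05, 3 were lower, against 2.31% of all genes, and 0 were higher. Without Myrf 5 of 6 were negative and the median was -0.30. Sox10, the transcription factor that acts with Myrf on myelin genes, had -0.60 ± 0.18 (SE, limma adjusted p = 0.376), and Fbxw7, which targets Myrf for degradation, had -0.21 ± 0.13. On the side of Slc5a11, 16 genes of inositol transport and synthesis were tested, Slc5a11 alone passed, 12 were negative, and the median was -0.07.

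**Figure D2:**
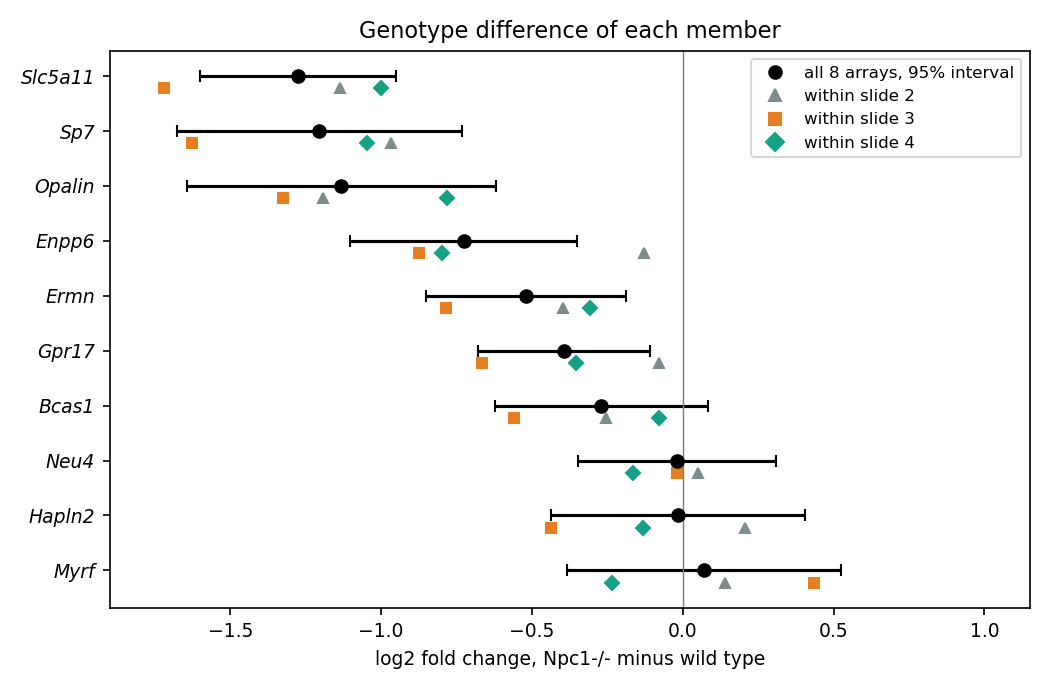
Log2 fold change of each member (horizontal axis, Npc1-/- minus wild type) with its 95% interval over all 8 arrays in black, and the difference within slide 2, 3 and 4 as coloured symbols. Slc5a11, Sp7, Opalin, Enpp6, Ermn, Gpr17 and Bcas1 are negative on all 3 slides. Among these, Enpp6 (-0.13) and Gpr17 (-0.08) are near 0 on slide 2, and Bcas1 (-0.08) on slide 4. The slides disagree in sign for Neu4, Hapln2 and Myrf.

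The members were then set beside lists of genes of 3 oligodendrocyte stages. Most genes of mature cells had negative values, those of newly formed cells were shifted by less, and those of precursors were centred on 0. The mature list had 48 tested genes with a median log2 fold change of -0.52, and 45 of them were negative, against a median of -0.02 and 53.4% negative over all genes. Leaving out the 5 members it holds, 41 of 43 were negative and the median was -0.51. In 21 of the 43 the groups did not overlap, against 1.95% of all genes. Without wild-type replicate 2 these values were 39, -0.42 and 21, and the share of all genes without overlap was 6.04%. Slc5a11 was its only gene that passed as lower. Ptgds, a prostaglandin synthase that is also abundant in choroid plexus and meninges, was its only gene that passed as higher (0.96 ± 0.16 (SE), limma adjusted p = 0.0397). At an unadjusted p under 0.05 (limma), 30 of the 48 were lower, against 2.31% of all genes, and 2 were higher, Ptgds and Apod (0.50 ± 0.11). Without the members 27 of 43 were lower at that p. Apod was named after its value was seen. With array weights 20 of the 48 passed as lower, against 0.434% of all genes.

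The list of committed and newly formed cells had 23 tested genes with a median of -0.16, and 20 of them were negative. Sp7 was its only gene that passed. At an unadjusted p under 0.05 (limma), 6 of the 23 were lower, against 2.31% of all genes, and 0 were higher. Of the 18 genes other than members, 3 were lower at that p. Without the 5 members 15 of 18 were negative, the median was -0.12, and the groups did not overlap for 2 genes, Lims2 at -0.28 ± 0.12 (SE) and Rap2a at -0.13 ± 0.08, against 1.95% of all genes. That count was 4 without Npc1-/- replicate 3, when the share of all genes was 3.05%. It was 3 without Npc1-/- replicate 2 (3.23% of all genes) or wild-type replicate 3 (2.37%). The precursor list had 17 tested genes, of which 0 passed (limma; 0 were lower and 0 higher at an unadjusted p under 0.05) and 8 were negative, with a median of 0.01. Its brightest genes were Ptprz1, a receptor phosphatase (0.07 ± 0.10 (SE)), and Gpr37l1 (-0.00 ± 0.10). In whole cerebellum the cells that gave the signal of the listed genes were not determined. Sp7 and Enpp6 had larger negative values than any of the 18 other genes of the newly formed list. Slc5a11 and Opalin had larger negative values than any of the 43 other genes of the mature list. For Sp7 and Slc5a11 this follows from their choice by a large drop on these same arrays. Enpp6 and Opalin were chosen with earlier results of these data known.

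**Figure D3:**
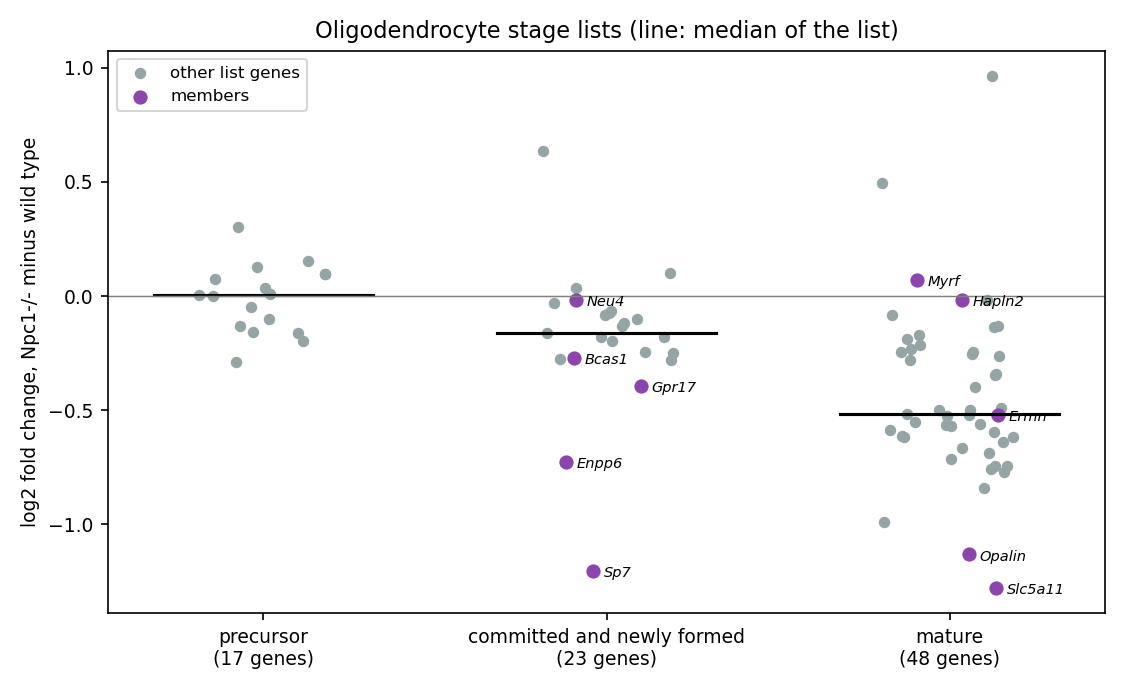
Log2 fold change of every tested gene of 3 oligodendrocyte stage lists (vertical axis), with members in purple and named, other list genes in grey, and the median of each list as a line. The medians are 0.01, -0.16 and -0.52 from precursor to mature. Sp7, Slc5a11 and Opalin lie below all other genes of their lists, which for Sp7 and Slc5a11 follows from their choice by a large drop.

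To set each member against the mature genes on the same array, every gene was centred on its wild-type mean and the median of the 48 mature genes was subtracted. For Slc5a11 this left -0.85, -0.71, -0.65 and -0.94 on the Npc1-/- arrays and 0.04, 0.10, -0.02 and -0.08 on the wild-type arrays. Sp7 kept -0.94, -0.35, -0.92 and -0.66 against -0.19, 0.10, 0.17 and -0.05. Opalin kept -1.10, -0.73, -0.40 and -0.35 against 0.07, -0.12, 0.01 and 0.08. These 3 genes were still apart between the genotypes, with differences of the means of -0.80, -0.73 and -0.65, and they remained apart with the mean of the list or with the list stripped of the members. Ermn, in contrast, lay with the list, with a difference of -0.04, and Gpr17 did as well at 0.08. Enpp6 kept -0.25 with overlapping arrays. Bcas1 (0.21), Neu4 (0.46) and Hapln2 (0.46) lay above the list in Npc1-/- cerebellum, with overlapping arrays in each case. No such value is read for Myrf, whose tested probe was near background. No test was made of these relative values, since both the members and the lists were chosen with the data known.

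**Figure D4:**
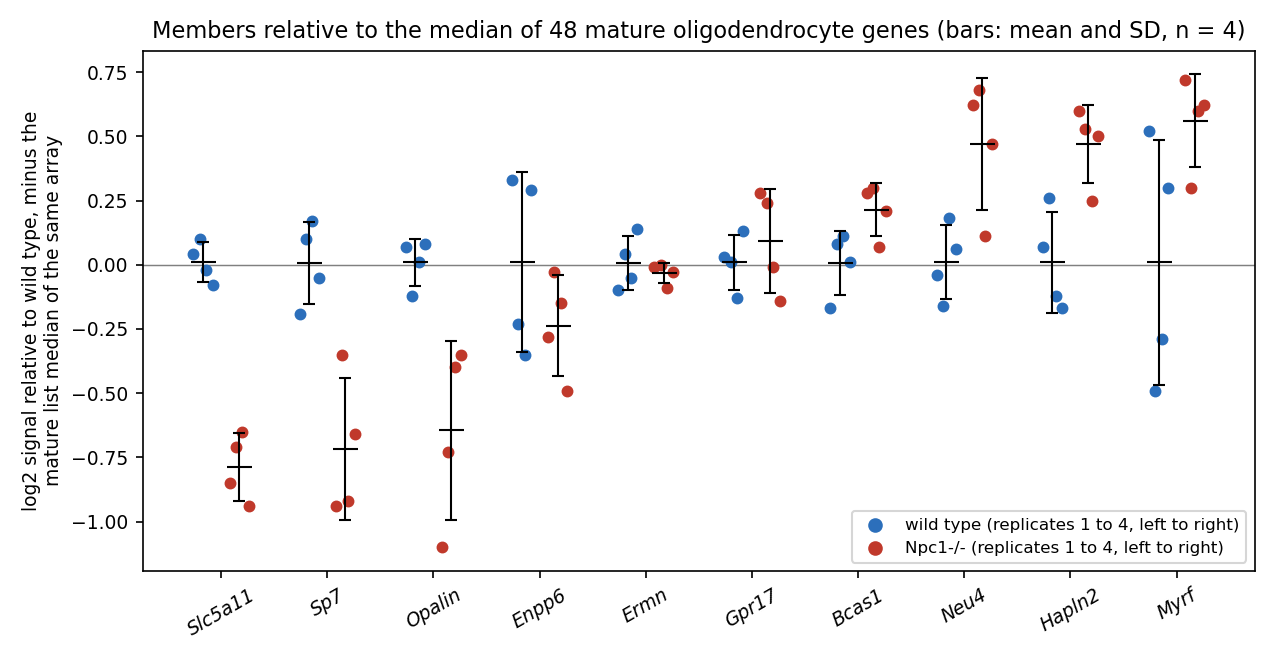
Log2 signal of each member relative to wild type after the median of 48 mature oligodendrocyte genes on the same array was subtracted, with wild-type arrays in blue, Npc1-/- arrays in red, and the mean and SD of each group as bars (n = 4). Slc5a11, Sp7 and Opalin stay below the wild-type arrays, by -0.80, -0.73 and -0.65 on average, and the arrays of the other 7 genes overlap.

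Among 13984 named genes compared over the 8 arrays, the one closest to both Sp7 and Slc5a11 was Slpi, an inhibitor of secreted proteases, with a root mean square distance of 0.11 and 0.12 log2 units. Slc5a11 and Sp7 were second closest to each other, at 0.21. Gal3st1, Mal and Ugt8a, genes of myelin lipids and of myelin membrane traffic, followed for Sp7 at 0.26 to 0.27. For Slc5a11 the next were the phosphate transporter Slc34a3, the kinase Sgk2 and then Opalin. Opalin ranked 9 for Sp7, Ermn ranked 50 and 61 for Sp7 and Slc5a11, and Enpp6 ranked 88 and 31. These distances describe 8 arrays that share the same 2 genotypes. Each gene was centred on its mean but not scaled, so genes with a drop of similar size lie close. Sp7 and Slc5a11 were chosen for such a drop, so their closeness is largely set by that choice.

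Promoters could be read for 6 members from a RefSeq table of GRCm38.p6, namely Enpp6, Ermn, Hapln2, Neu4, Opalin and Slc5a11. The 250 bases before the start were searched on both strands for ACAAAG (the core bound by SOX factors), CTGGNAC (the Myrf motif), CAGCTG (an E-box) and GGGCGG (a GC box, bound by the Sp family), none of which overlap each other in these members. ACAAAG was present in Opalin and Slc5a11 and in 16.5% of 32851 promoters, and CAGCTG in Slc5a11 and Hapln2 and in 13.0%. CTGGNAC was present in Hapln2 and in 16.1%, and GGGCGG in 0 of the 6 and in 32.7%. The promoters of Slc5a11 and Opalin, which were low, and of Hapln2, which was even, are shown 5′ to 3′ on the strand of the gene with the matches in capitals, where a match on the other strand reads as its reverse complement. They lie at chr7:123214616-123214865 (plus strand), chr19:41077114-41077363 (minus strand) and chr3:88027512-88027761 (minus strand).
Slc5a11: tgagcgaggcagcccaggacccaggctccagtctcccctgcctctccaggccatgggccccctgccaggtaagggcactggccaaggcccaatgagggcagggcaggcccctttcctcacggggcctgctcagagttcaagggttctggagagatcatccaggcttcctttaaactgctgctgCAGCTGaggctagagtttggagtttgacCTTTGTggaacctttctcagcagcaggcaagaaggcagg
Opalin: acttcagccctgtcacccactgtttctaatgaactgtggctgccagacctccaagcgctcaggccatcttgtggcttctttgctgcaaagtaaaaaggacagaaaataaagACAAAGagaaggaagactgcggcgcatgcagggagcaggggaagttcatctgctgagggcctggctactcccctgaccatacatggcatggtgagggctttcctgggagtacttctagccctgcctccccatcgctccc
Hapln2: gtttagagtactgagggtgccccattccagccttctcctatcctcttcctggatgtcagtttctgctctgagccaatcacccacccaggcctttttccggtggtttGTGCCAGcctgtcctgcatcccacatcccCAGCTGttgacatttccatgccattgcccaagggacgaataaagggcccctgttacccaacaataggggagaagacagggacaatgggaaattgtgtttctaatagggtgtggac

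Other cell types were read on the same arrays. Microglia and macrophage genes moved with the genotype, as 13 of 20 passed the threshold as higher, against 0.734% of all genes. Among them were Gpnmb (limma adjusted p = 0.00045) and Itgax (0.0296). All 20 were higher at an unadjusted p under 0.05 (limma). The summed linear level of the 20 genes was 37.4 to 48.0 on the Npc1-/- arrays against 9.81 to 13.8. The summed level of choroid plexus and meningeal genes was 66.3 to 98.2 against 41.0 to 52.2, of which Ptgds alone made 72.5% to 86.1%. Without Ptgds it was 9.19 to 17.9 against 10.5 to 13.6. Ptgds alone of these 9 genes passed (limma), their median was 0.22, and the choroid plexus genes Ttr, Folr1 and Clic6 had -0.35 ± 0.66, -0.06 ± 0.58 and 0.05 ± 0.34 (SE), named after their values were seen. Of 10 Purkinje cell and 10 granule neuron genes all were negative and 0 passed (limma; 0 and 2 were lower and none was higher at an unadjusted p under 0.05), with medians of -0.23 and -0.22. The 6 tested Schwann cell genes (0 passed in limma; 0 were lower and 2 higher at an unadjusted p under 0.05) summed to 0.845 to 1.03 against 0.592 to 0.913, and Pmp2, a protein of peripheral myelin, did not pass the filter on dim probes. Of 12 astrocyte and 10 endothelial and mural genes 0 passed (limma; 1 and 0 were lower and 1 and 0 were higher at an unadjusted p under 0.05), with medians of -0.02 and 0.04. Gfap, the filament protein of reactive astrocytes, had 1.08 ± 0.19 (SE, limma adjusted p = 0.0516) with every Npc1-/- array above every wild-type array, and Fabp7 of Bergmann glia had -0.59 ± 0.21, both named after their values were seen. The summed level of the mature oligodendrocyte genes was 434 to 487 against 493 to 657, and that of the newly formed genes was 82.0 to 90.4 against 92.5 to 102.4. Kndc1 alone made 24.4% to 33.3% of the newly formed sum, which without it was 58.2 to 62.3 against 65.1 to 77.4. The part of these other cell types in the values of the 10 genes was not tested.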

How the data were processed

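The deposited files hold intensity values per spot from Agilent Feature Extraction 9.5 (named in the submitters' processing notes), with background already subtracted from the processed signal, per the file headers. Signals were taken as log2 and centred on the 75th percentile of the array, with control spots left out, outlier-flagged spots (74 to 115 per array) set to missing and spots of a probe averaged. Probes that passed the scanner's background flag on 4 or more of the 8 arrays (27164 of 41174) were kept, and the brightest probe stood for a gene. The genotype was the single factor of a two-sided limma fit (version 3.58.1, R 4.3.3), and p-values were adjusted over all genes by Benjamini and Hochberg. The number of arrays, 4 per genotype, limits the precision. On simulated data the fit recovered 0%, 72.5% and 92.0% of 200 genes among 17966 changed by 0.5, 1 and 2 log2 units. Members and lists were chosen with earlier results of these data known. Named genes were Npc1, all members, and per list up to 3 genes past the threshold or the 2 brightest, up to 2 for other cell types, and the 5 nearest to Sp7 and to Slc5a11. Genes outside that rule, such as Lims2 and Rap2a, were chosen with their values in view. The Illumina table was not used. Alternatives were other scalings, filters, probe rules, blocks, array weights and leaving out each array. Some genes of the lists are not reported here.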

Additional observations from a re-analysis of the deposited data

Results flagged for a closer look

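In 38 groups of 4 values (the probes and the list medians of each genotype) the highest or lowest array was compared with the rest by Dixon's ratio of gap to range, which passes its 95% critical value by chance in about 1 of 20 groups. The signal of Slc5a11 on wild-type replicate 2 was -0.67 against -1.14 on the nearest wild-type array, a ratio of 0.961. Hapln2 on the same array was -0.24 against -0.87, a ratio of 0.838. This array had the fewest probes well above background, and 7 of the 10 members were highest on it. The median of the committed and newly formed list on Npc1-/- replicate 4 was -0.13 against -0.09 on the nearest Npc1-/- array, a ratio of 0.903 over a range of small width.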

How the results depend on the processing

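Against 132 genes higher, 6 lower and 2 members past the threshold, the counts were 69 higher with array-median scaling, 82 with quantile normalization and 83 with probes above background on all 8 arrays. Without a filter on dim probes they were 56, 3 and 1, with slides as blocks 37, 1 and 0, and with array weights 286, 78 and 5 (Slc5a11, Sp7, Opalin, Enpp6 and Ermn). With the scan day as a block 1 member passed. The labels do not say whether replicate numbers pair the arrays. The deviations of same-numbered arrays correlated from -0.445 to 0.201 and those of differently numbered arrays from -0.605 to 0.589, which cannot decide it. With the replicate block the counts were 26, 1 and 0. Leaving out 1 array gave 52 to 144 genes higher, 2 to 8 lower and 1 to 2 members. Slc5a11 passed without each array in turn (limma adjusted p 0.00516 to 0.0312).

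Differences that changed sign were those near 0. Myrf was -0.038 with array-median scaling, -0.054 with normexp and -0.18 with array weights (-0.19 in the probe fit), and -0.060 to 0.18 in the 4 of 8 fits without 1 array in which its probe passed the filter (those without Npc1-/- replicate 2 or 4 or wild-type replicate 2 or 3). Hapln2 was 0.087 with array weights (0.099 in the probe fit) and -0.10 to 0.16 when 1 array was left out, and Neu4 was then -0.092 to 0.10.

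Array-median scaling moved the median of all genes by -0.11, and with it the medians of the precursor and newly formed lists to -0.10 and -0.27. With normexp the newly formed median was -0.11, and leaving out 1 array gave -0.17 to -0.14. List medians and overlap counts under alternatives were added after seeing the data. The cause of these changes was not tested. Of 175 alternative fits of the members 142 kept the direction and the side of the threshold. Within slides the sign turned for Neu4 and Hapln2 (slide 2) and for Myrf (slide 4). Myrf was well above background on 4 of 8 arrays, which limits its value.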
